A study of Homo sapiens with 11 samples.

Results

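A set of 8 genes for secreted proteins, of the kind that fetal liver and yolk sac endoderm are known for, was followed across 11 RNA-seq libraries of human embryonic stem cells. They are AFP, ALB, TTR, APOA1, APOA2, APOB, SPINK1 and FGB, 8 of the 23287 gene entries in the deposited tables. They were listed for their high values in the culture called t2iGo and for their response to short hairpin RNAs (shRNAs) there, so all values from that culture are given as a description with no test. The lines are H1 and H7, established human embryonic stem cell lines. Primed cells are the conventional state of such cultures, and 5iLA and t2iGo are media meant to hold the earlier, naive state of pluripotency. The first 9 libraries came 5 days after lentiviral delivery of 1 of 3 shRNAs (control, uCCNE1 or pCCNE1) to each of 3 cultures, which were primed H1, 5iLA H7 and t2iGo H1. The control libraries were also infected. A further 2 libraries, from H7 without virus, were 1 of primed cells and 1 of 5iLA cells, with no time given. Each group held 1 library, and the labels name no separate cultures, so every spread below is between libraries and may be partly technical. Between the infected 5iLA H7 libraries and those of H1, the medium and the cell line changed together and cannot be told apart.

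AFP and ALB are carriers of small molecules in blood plasma, the first made mainly by the fetus. TTR carries thyroid hormone and the retinol-binding protein. APOA1 and APOA2 are the main proteins of high-density lipoprotein, APOB is the structural protein of the larger lipoproteins, SPINK1 inhibits trypsin, and FGB is the beta chain of fibrinogen, the clotting protein. The endoderm of the yolk sac makes many of these proteins before the liver does, and both tissues use transcription factors of the HNF4, FOXA, GATA and C/EBP families to do so.

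Marker genes went against the naive label of the t2iGo cells. The summed level of 10 naive-state genes was 3.995 to 5.58 RPKM in the t2iGo cells. In primed H1 it was 4.01 to 5.35, and in 5iLA H7 it reached 492 to 862. RPKM is a read number divided by transcript length and by library size, so levels can be set side by side between genes. DPPA3, which marks naive cells, was at 0.768, 0.339 and 0.357 RPKM in t2iGo H1 with the control, uCCNE1 and pCCNE1 shRNAs, and at 156 to 260 in 5iLA H7. The 8 primed-state genes summed to 336 to 407 RPKM in t2iGo H1 and 1766 to 2164 in primed H1. POU5F1, the defining factor of pluripotency and named after its values were seen, was at 34.6, 18.2 and 13.6 RPKM in t2iGo H1 and at 275 to 351 in primed H1. In 5iLA H7 it was at 44.2 to 84.6. In untreated H7, normalised separately, it was at 39.97 in primed and 35.3 in 5iLA cells. LIN28A, another gene of pluripotent cells, was at 350, 347 and 296 in t2iGo H1 against 354 to 432 in primed H1. CCNE1, the cyclin E1 gene that both shRNAs are named for, was lower than in its control in each culture. In t2iGo H1 it was at 9.65 RPKM with the control, 5.38 with uCCNE1 and 5.25 with pCCNE1. In primed H1 the values were 11.95, 6.75 and 10.5, and in 5iLA H7 they were 14.1, 5.27 and 8.38. A gene-level value does not separate the splice forms of CCNE1.

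Depth was estimated from the steps that low RPKM values fall on, and came to 6.02 to 13.9 M reads for the t2iGo libraries, 11.1 to 16.7 for 5iLA H7 and 18.99 to 23.6 for primed H1. A single read on a 2 kb transcript was then worth from 0.0207 RPKM in untreated 5iLA H7 (24.2 M reads) to 0.0831 in t2iGo H1 with pCCNE1. Reads behind each member's value were estimated in the same way, and for APOA1, FGB and TTR the step rests on 2 low values. The steps of SPINK1 fit a transcript of 284.5 bases, where GENCODE gives 542, and those of FGB fit 3559 bases, where GENCODE gives 1975. Counts of reads are therefore uncertain by up to about 1.9 times, and the intervals built on them are approximate and cover counting error only. The primed H1 libraries carry another naming scheme in the labels, and their values sat higher over most genes. The median difference of t2iGo H1 from primed H1 on the log2(RPKM + 1) scale was -0.82 over 12116 genes with a mean of at least 1 RPKM in the 9 shRNA libraries. It was -0.13 after median-ratio scaling and 0.14 when only entries with a coding-transcript accession were kept and their sums made equal.

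Promoter sequences of 5 of the 8 genes were found in RefSeq (AFP, ALB, APOA2, FGB and SPINK1), and those of TTR, APOA1 and APOB were not matched. The stretches of 4 are shown, those of the matched genes that held at least 1 of the motifs searched, and SPINK1, which held none, is left out. Each line gives 150 bases on the gene's own strand, 5′ to 3′, and capitals mark a match on either strand to TGTTTAC, a form of the FOXA site, to its near forms TGTTTGC and also TATTTAC, to TTGCNNAA, a form of the C/EBP site, or to the TATA box letters TATAAA. Positions are of build GRCh38.p14, while the expression files were made on hg19. They are chr4:73436071-73436220 (plus strand) for AFP, chr4:73404137-73404286 (plus) for ALB, chr4:154562830-154562979 (plus) for FGB and chr1:161223629-161223778 (minus) for APOA2.
AFP: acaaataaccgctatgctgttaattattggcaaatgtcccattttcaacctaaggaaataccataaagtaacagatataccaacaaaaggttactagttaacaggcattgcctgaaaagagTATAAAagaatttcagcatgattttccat
ALB: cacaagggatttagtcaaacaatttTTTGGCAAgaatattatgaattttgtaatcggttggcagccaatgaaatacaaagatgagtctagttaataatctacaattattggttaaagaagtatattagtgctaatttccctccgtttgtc
FGB: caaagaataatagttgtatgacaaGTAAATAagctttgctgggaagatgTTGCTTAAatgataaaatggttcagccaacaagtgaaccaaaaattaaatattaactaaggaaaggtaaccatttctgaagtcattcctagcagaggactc
APOA2: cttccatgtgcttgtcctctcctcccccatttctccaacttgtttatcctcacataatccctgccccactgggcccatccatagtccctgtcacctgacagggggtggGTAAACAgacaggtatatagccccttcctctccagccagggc

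Over the 250 bases before the start, a FOXA form was found in APOA2, ALB and FGB, 42, 159 and 126 bases before the start, and in 8.27% of 35116 RefSeq promoters of the same length. TTGCNNAA was found in ALB, AFP and FGB, 125, 221 and 101 bases before the start, and in 9.05% of all promoters. The ALB match at 159 and the AFP match at 221 lie upstream of the stretches shown. TATAAA was found in AFP alone of the 5 members, 29 bases before the start, and in 10.7% of all. CAAAGTCCA, an HNF4 form, was found in none of the 5 members and in 0.325% of all. The form AGATAA, which GATA factors bind, was also found in none of the 5 and in 9.17% of all. Both strands were read, and motifs may overlap.

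All 8 genes were higher in each of the 3 t2iGo H1 libraries than in any of the 6 libraries of primed H1 and 5iLA H7. The same held for 6.4% of the 12116 genes, a share that cannot be read against the members because they were chosen from this contrast. The summed level of the 8 genes was 65.5, 176 and 166 RPKM in t2iGo H1 with the control, uCCNE1 and pCCNE1 shRNAs. It was 6.31, 3.43 and 2.08 in primed H1 and 0.199, 1.27 and 0.782 in 5iLA H7. In bulk RNA, more cells of a type and more RNA per cell cannot be told apart.

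**Figure D1:**
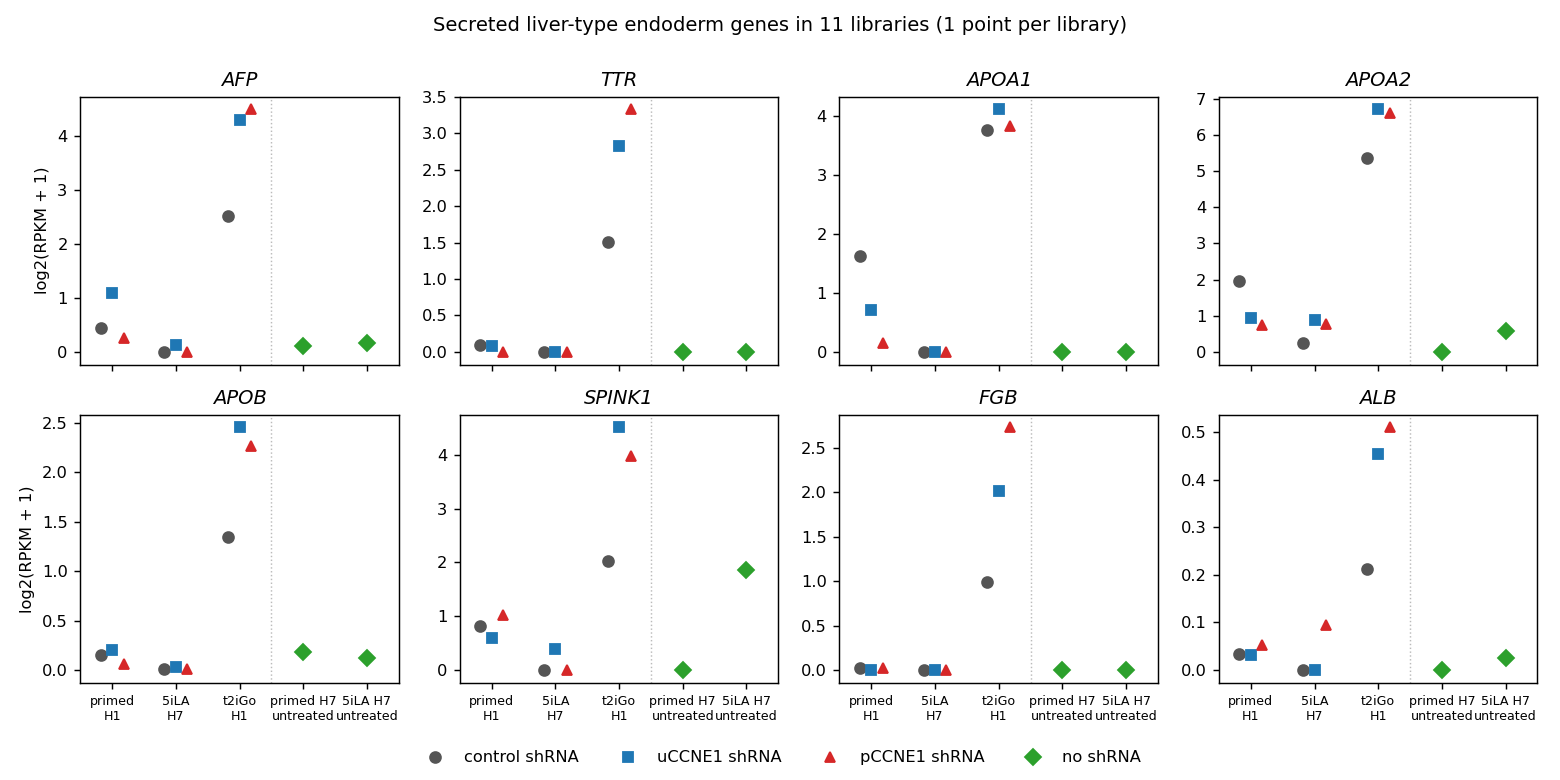
Level of each of the 8 genes on the log2(RPKM + 1) scale, with 1 point per library, for 3 shRNAs in primed H1, 5iLA H7 and t2iGo H1 and for the 2 untreated H7 libraries, which come from a separate table to the right of the dotted line. The vertical scale differs between panels, and in each panel the 3 t2iGo points are the highest of the 9 shRNA libraries.

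In what follows, elsewhere means the 6 shRNA libraries of primed H1 and 5iLA H7. Among the plasma carriers, AFP (NM_001134, chromosome 4) was at 4.71 RPKM with the control shRNA in t2iGo H1, 18.7 with uCCNE1 and 21.6 with pCCNE1. In primed H1 it was at 0.365, 1.13 and 0.189, and in 5iLA H7 it was at 0.0883 with uCCNE1 and at 0 in the other 2 libraries. The t2iGo control, the lowest of its 3 libraries, was 4.16 times the highest value elsewhere, the uCCNE1 library of primed H1. The mean difference of t2iGo H1 from primed H1, taken within each shRNA, was 3.17 ± 1.09 on the log2(RPKM + 1) scale (SD, n = 3). From 5iLA H7 it was 3.73 ± 1.07.

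TTR (NM_000371, chromosome 18) was at 1.85, 6.10 and 9.12 RPKM in the control, uCCNE1 and pCCNE1 libraries of t2iGo H1. In primed H1 it was at 0.0650, 0.0607 and 0, about 1 read where present, and it was at 0 in all 3 libraries of 5iLA H7. No library outside t2iGo H1 thus held more than about 1 TTR read. The difference from primed H1 was 2.5 ± 0.98 on the log2(RPKM + 1) scale (SD, n = 3).

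ALB (NM_000477, chromosome 4), the most abundant plasma protein of the adult, was the lowest of the 8 genes in t2iGo H1. It was at 0.159, 0.371 and 0.425 RPKM there, which are about 5, 8 and 6 reads. Elsewhere it was at 0.0220 to 0.0377 RPKM in primed H1 and at 0, 0 and 0.0673 in 5iLA H7. Its mean over the 9 libraries, 0.123 RPKM, was under the minimum of 1, so ALB is the only member that did not pass that filter. The other 7 passed through their t2iGo values. The ALB levels did not overlap between t2iGo H1 and the rest, yet the log2(RPKM + 1) difference from primed H1 was only 0.35 ± 0.15 (SD, n = 3), since that scale understates changes at low values.

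The apolipoproteins held most of the summed signal in t2iGo H1. APOA2 (NM_001643, chromosome 1) was at 40.6, 105 and 97.6 RPKM in the control, uCCNE1 and pCCNE1 libraries of t2iGo H1. In primed H1 it was at 2.87, 0.921 and 0.661, and in 5iLA H7 at 0.191, 0.845 and 0.709. APOA2 made up 62.0%, 59.7% and 58.7% of the summed RPKM of the 8 genes in t2iGo H1. It ranked 730, 219 and 210 from the top of 23287 entries in those libraries, where ALB ranked 14278, 12712 and 12213. The APOA2 difference was 5.03 ± 1.40 from primed H1 and 5.61 ± 0.42 from 5iLA H7 on the log2(RPKM + 1) scale (SD, n = 3), the largest of the 8 against both cultures. Its transcript is short, 474 bases in GENCODE, and so is that of SPINK1 at 542 bases, and RPKM values of short transcripts are less certain.

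APOA1 (NM_000039, chromosome 11) was at 12.6, 16.5 and 13.2 RPKM in t2iGo H1, the smallest ratio of highest to lowest value among the 8 genes there. It was at 2.10, 0.633 and 0.109 in primed H1 and at 0 in all 3 libraries of 5iLA H7. The lowest t2iGo value was 5.99 times the highest primed value, and both were control libraries. Its differences were 3.08 ± 0.83 from primed H1 and 3.91 ± 0.19 from 5iLA H7 on the log2(RPKM + 1) scale (SD, n = 3).

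APOB (NM_000384, chromosome 2), with the longest transcript of the 8, had the most reads behind it despite a lower level. It was at 1.54, 4.496 and 3.82 RPKM in t2iGo H1, about 326, 642 and 349 reads. Primed H1 gave 0.107, 0.147 and 0.0392 RPKM, and 5iLA H7 gave 0.00790, 0.0176 and 0.005. The lowest t2iGo value was 10.5 times the highest value elsewhere. The log2(RPKM + 1) difference from primed H1 was 1.89 ± 0.60 (SD, n = 3).

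SPINK1 (NM_003122, chromosome 5) was at 3.08, 21.9 and 14.8 RPKM in t2iGo H1, about 12, 59 and 25 reads by its steps or 23, 112 and 48 by its GENCODE length. It was at 0.761, 0.515 and 1.04 in primed H1, and in 5iLA H7 at 0.316 with uCCNE1, about 1 read, and at 0 in the other libraries. The gap between t2iGo H1 and the rest was the smallest of the 8 genes after ALB in these terms, the lowest t2iGo value being 2.97 times the highest value elsewhere, against 2.36 times for ALB. The log2(RPKM + 1) difference from primed H1 was 2.69 ± 1.37 (SD, n = 3).

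FGB (NM_005141, chromosome 4) was at 0.987, 3.05 and 5.67 RPKM in t2iGo H1. It was at 0.0147, 0 and 0.0119 in primed H1, about 1 read where present, and at 0 in every 5iLA H7 library. Like TTR, it was nearly absent outside t2iGo H1. The log2(RPKM + 1) difference from primed H1 was 1.90 ± 0.88 (SD, n = 3).

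In counts, 7 of 8 members were at least 2-fold higher in t2iGo H1 than in primed H1 on the log2(RPKM + 1) scale, against 4.18% of all genes, and 7 of 8 than in 5iLA H7, against 18.9%. ALB was the exception in both. A difference of at least 4-fold from both cultures was seen in 5 of 8 members (AFP, TTR, APOA1, APOA2 and SPINK1), against 0.371% of all genes. The nearest member inside that limit, 2 on the log2 scale against both, was TTR, at 2.5 and 2.56. The nearest outside were FGB, at 1.90 and 1.92, and APOB, at 1.89 and 2.01. Over the 7 members that passed the filter the median difference was 2.69 from primed H1, where all genes had -0.82, and 3.38 from 5iLA H7, where all genes had 0.31. With ALB included the medians were 2.60 and 2.97. These counts and medians restate the choice of the genes.

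With the CCNE1 shRNAs the members were higher again within t2iGo H1. Both CCNE1 shRNA libraries were above the control library for 8 of 8 members, against 28.7% of all genes. The size differed between members, from 7.11-fold for SPINK1 with uCCNE1 to 1.05-fold for APOA1 with pCCNE1. The 2 ratios of each gene share 1 control library, and no test was made. At least 2-fold on the log2(RPKM + 1) scale was reached by 6 of 8 members with uCCNE1, against 0.38% of all genes, and by 5 of 8 with pCCNE1, against 0.735%. With pCCNE1 the gene lost from the first group was APOB, at 0.92 on the log2 scale. None was at least 2-fold lower with either shRNA, where 0.636% and 2.72% of all genes were. The median of the 7 members that passed the filter was 1.32 with uCCNE1 and 1.75 with pCCNE1, beside medians of 0.00058 and -0.11 over all genes.

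AFP was at 3.96 times the control with uCCNE1 (95% counting interval 3.24 to 4.87) and 4.59 times with pCCNE1 (3.71 to 5.70). TTR was at 3.29 times (1.93 to 5.80) and 4.93 times (2.87 to 8.71). ALB was at 2.34 times (0.676 to 9.10) and 2.68 times (0.682 to 11.1), and at this depth both intervals included 1. These intervals hold no spread between libraries, so whether they include 1 is no test of an shRNA effect.

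APOA2 was at 2.59 times its control with uCCNE1 (2.15 to 3.12) and 2.41 times with pCCNE1 (1.95 to 2.96). APOB was close to it, at 2.92 times (2.55 to 3.34) and 2.48 times (2.12 to 2.89). APOA1 stood apart from both, at 1.31 times with uCCNE1 (1.02 to 1.68) and 1.05 times with pCCNE1 (0.767 to 1.43). Its share of the summed RPKM of the 8 genes was 19.2% in the control library, 9.38% with uCCNE1 and 7.96% with pCCNE1, while the share of AFP was 7.19%, 10.6% and 13.0%.

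SPINK1 was at 7.11 times its control with uCCNE1 (3.78 to 14.5) and 4.80 times with pCCNE1 (2.32 to 10.5). FGB was at 3.09 times (2.18 to 4.44) and 5.74 times (4.09 to 8.17). Set directly against uCCNE1, the pCCNE1 library held 1.86 times as much FGB (1.42 to 2.44) and 0.850 times as much APOB (0.744 to 0.970). For AFP, APOA1, APOA2 and ALB the counting interval of that ratio included 1. For SPINK1 and TTR it depended on the read estimate. The SPINK1 ratio was 0.675, with an interval of 0.405 to 1.09 by steps and 0.471 to 0.955 by GENCODE length. The TTR ratio was 1.495, with 0.971 to 2.3 by steps and 1.006 to 2.22 by length.

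**Figure D2:**
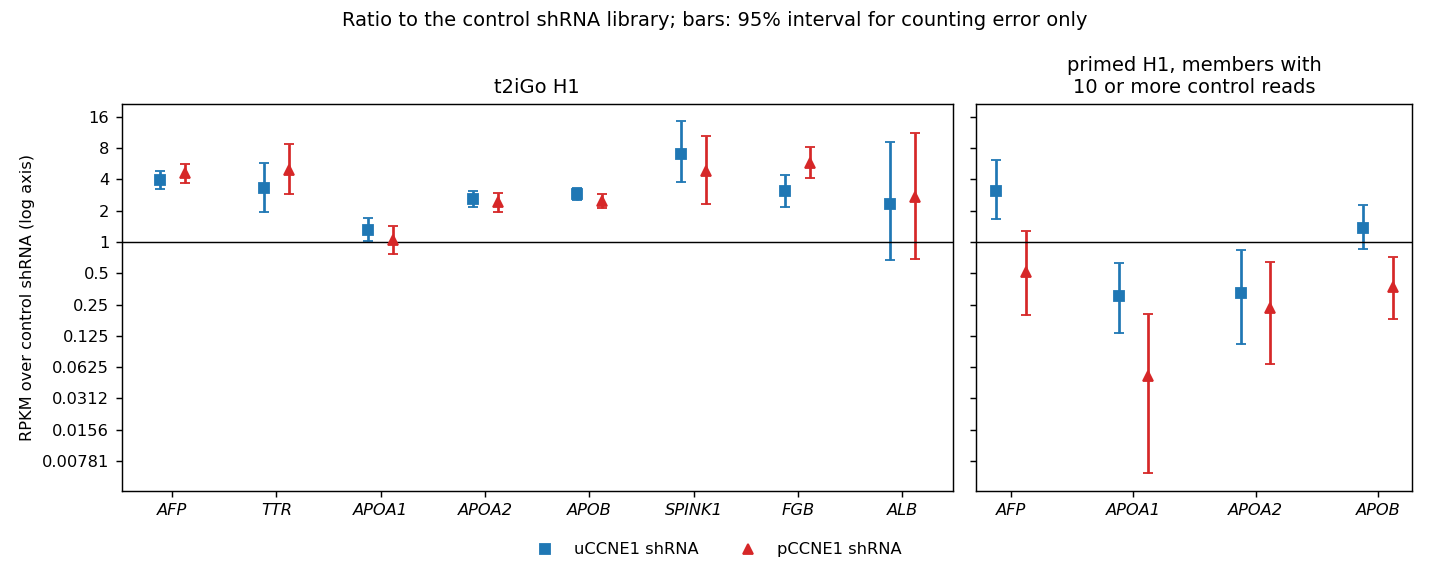
RPKM with each CCNE1 shRNA divided by RPKM in the control library of the same culture, on a log axis, for the 8 genes in t2iGo H1 and for the 4 genes with at least 10 estimated control reads in primed H1. Bars are approximate 95% intervals for counting error only, from 1 library per point; APOA1 and APOA2 lie above or at 1 in t2iGo H1 and below 1 in primed H1.

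In primed H1 none of the 8 members had both CCNE1 shRNA libraries above the control, where 27.5% of all genes did. The shRNA contrast there did not enter the choice of the genes, but the primed levels, set against t2iGo H1, did. That share is over genes with a mean of at least 1 RPKM, and 4 of the members had at most 7 reads by their steps. The count therefore says little of the members. APOA1 went from 2.10 RPKM (about 32 reads) with the control to 0.633 (about 10) with uCCNE1 and 0.109 (about 2) with pCCNE1. The ratios were 0.301 (0.132 to 0.627) and 0.0516 (0.00599 to 0.202). APOA2 went from 2.87 RPKM (about 18 reads) to 0.921 and 0.661, ratios of 0.321 (0.104 to 0.843) and 0.230 (0.0668 to 0.644). AFP was at 3.10 times its control with uCCNE1 (1.67 to 6.10) and 0.519 times with pCCNE1 (0.198 to 1.29). APOB was at 1.38 times (0.852 to 2.25) and 0.367 times (0.180 to 0.710). The remaining 4 members had at most 7 reads in a primed library by their steps, or 13 by GENCODE length (SPINK1 with pCCNE1). On the log2(RPKM + 1) scale 1 of 8 members (APOA2) was at least 2-fold lower with uCCNE1, beside 2.82% of all genes. With pCCNE1 2 of 8 were (APOA1 and APOA2), beside 3.61%.

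Primed H1 and 5iLA H7 were tested together with limma on log2(RPKM + 1), with culture and shRNA as terms and 2 residual degrees of freedom. Of the members only APOA2 had a mean of at least 1 RPKM in these 6 libraries, and it reached that through its primed H1 control library (2.87 RPKM), so its tests in this fit cannot support a difference. Its change was -0.35 ± 0.31 (SE) with pCCNE1, with an adjusted p of 0.864 by limma, and -0.19 ± 0.31 with uCCNE1, with an adjusted p of 0.884. The threshold of 0.05 was passed by 1.32% of 12344 genes for pCCNE1 and 1.76% for uCCNE1. APOA2 was lower with both shRNAs in primed H1 and higher with both in 5iLA H7. There it rested on 1 to 3 reads by its steps, or 2 to 4 by GENCODE length. When no filter was set, all 8 members were tested. None passed for either shRNA, and neither did any other gene (0% of 23287), so this says nothing of the members. Between the cultures, APOA2 was 0.57 ± 0.25 lower in 5iLA H7 than in primed H1 with the filter, where 83.7% of all genes passed, 75.8% were lower and the median was -1.23. With no filter 0 of the 8 members passed between the cultures, and 44% of 23287 genes did. The APOA2 value there had an adjusted p of 0.431 by limma, against 0.0267 with the filter. Median-ratio scaling moved the split of all calls from 978 higher and 9352 lower to 3063 and 4256, and the scaling on coding entries to 3293 and 3582. AFP, APOA1, APOB and SPINK1, 4 of the 8 members, were higher in every primed H1 library than in any 5iLA H7 library, as were 74.8% of all genes.

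In the untreated H7 pair only SPINK1 differed by at least 2-fold, at 2.63 RPKM (about 18 reads) in 5iLA and 0 in primed, 1 of 8 members. Of 11015 genes 11% were at least 2-fold higher in 5iLA and 3.94% at least 2-fold lower. It was thus higher in untreated 5iLA H7 than in any of the 3 infected 5iLA H7 libraries, though the tables were normalised separately. TTR, APOA1 and FGB were at 0 in both untreated libraries. AFP was at 0.0749 RPKM in primed and 0.118 in 5iLA, APOB at 0.133 and 0.0841, APOA2 at 0 and 0.494, and ALB at 0 and 0.0177. None of the 8 came near its t2iGo H1 level in untreated H7 except SPINK1, whose 5iLA value was 2.63 against 3.08 in the t2iGo control.

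Other plasma proteins of the liver were mostly under 1 RPKM. Of 20 listed genes, 2 passed the filter, FGA and FGG. Both passed only through t2iGo H1, so that they were at least 2-fold higher there than in primed H1 (4.18% of all genes) and 5iLA H7 (18.9%) was fixed by the filter. Both were also at least 2-fold higher than the t2iGo control with uCCNE1 (0.38% of all genes) and pCCNE1 (0.735%). FGG passed the filter only through the higher values of its CCNE1 shRNA libraries, so its place in these counts was also tied to the filter. They encode the alpha and gamma chains that join the beta chain of FGB in fibrinogen. FGA was at 5.24, 15.3 and 12.7 RPKM in the control, uCCNE1 and pCCNE1 libraries of t2iGo H1, and at most 0.0343 elsewhere. FGG was at 2.26, 5.76 and 6.65, and at most 0.0326 elsewhere. All 3 fibrinogen chains were thus higher with both CCNE1 shRNAs than with the control, though FGB was among the genes listed for that response. VTN, vitronectin, was at 1.05, 1.86 and 1.68 RPKM, and SERPINA1, the antitrypsin gene, at 0.543, 0.857 and 0.300. APOH was at 0 in all 9 shRNA libraries. AMBP, named after its values were seen, went the other way, with 1.77 to 2.59 RPKM in primed H1 and at most 0.262 in t2iGo H1.

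The other apolipoproteins did not follow APOA1, APOA2 and APOB. Of 11 listed, 4 passed the filter, none was at least 2-fold higher in t2iGo H1 than in primed H1 and 2 were at least 2-fold lower, as were 43.2% of all genes. APOM, 1 of these 2, passed only through primed H1, so its place in that count was tied to the filter. The list's median was -1.11 from primed H1, and it was below 0 under both other scalings (-0.49 and -0.99). APOC1 was at 66.6, 74.6 and 66.8 RPKM in t2iGo H1, 43.8 to 50.8 in primed H1 and 52.7 to 99.7 in 5iLA H7. APOE, found on lipoproteins of many tissues, was at 23.9, 17.2 and 14.5 RPKM in t2iGo H1, below every primed H1 library (84.4 to 235) and every 5iLA H7 library (31.0 to 59.2). APOO was at 8.72 to 10.04 RPKM and APOM at 0.871, 0.370 and 0. APOA5, APOC2, APOC3, APOC4 and APOD were at 0 in all 3 t2iGo libraries.

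Of 16 genes of lipoprotein assembly and uptake, 12 passed, 2 were at least 2-fold higher in t2iGo H1 than in primed H1 and 7 were at least 2-fold lower, beside 4.18% and 43.2% of all genes. Of the 7, DGAT1, DGAT2 and LCAT, named after their values were seen, passed only through primed H1. Their places in that count were thus tied to the filter. The list's median from primed H1 was -1.22, and -0.56 and -0.30 under the other scalings. MTTP, which loads lipid onto APOB and was named after its values were seen, was at 0.770, 1.39 and 1.40 RPKM in t2iGo H1 and 0.443 to 0.807 in primed H1, so the 2 ranges overlapped. P4HB, the partner subunit of MTTP, was at 61.6, 54.2 and 47.2 RPKM against 117 to 140. PLTP, a lipid transfer protein, was at 9.62 to 13.8 against 43.2 to 51.8, and the cholesterol exporter ABCA1 was at 5.60, 10.8 and 11.1 against 1.99 to 3.28. In 5iLA H7 ABCA1 was higher still, at 27.4 to 32.6.

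Regulators of liver and endoderm were low, and they did not share a direction. Of 18 listed, 5 passed, 1 was at least 2-fold higher in t2iGo H1 than in primed H1 (EOMES) and 3 were at least 2-fold lower, beside 4.18% and 43.2% of all genes. The 3 lower genes, named after their values were seen, were FOXA3 (-2.63), CEBPB (-1.39) and ONECUT1 (-1.35) on the log2(RPKM + 1) scale. EOMES passed only through t2iGo H1, and these 3 passed only through primed H1. Their places in those counts were thus tied to the filter. Among those under the filter, GATA6 (1.196), GATA4 (1.12) and PROX1 (1.11) were, like EOMES, at least 2-fold higher on that scale. EOMES, an early endoderm and mesendoderm factor, was at 5.66 RPKM with the control, 1.87 with uCCNE1 and 0.969 with pCCNE1, the reverse order of AFP. PROX1, an early hepatic factor, was at 1.99, 2.52 and 2.11 RPKM, and at most 0.667 elsewhere. GATA6 was at 2.05, 1.18 and 1.31, and at most 0.210 elsewhere. NR2F2 was at 0.528, 1.73 and 1.92. Further factors were looked at for their role after values were seen. GATA4 was at 2.05, 1.07 and 1.03 RPKM and SOX17 at 1.33, 0.795 and 0.877. HNF4A was at 0.396, 0.728 and 0.345, below its 1.38 to 1.63 in 5iLA H7. On the log2(RPKM + 1) scale FOXA2 (0.42), FOXA1 (0.19) and CEBPA (-0.56) differed from primed H1 by less than 2-fold. Mature hepatocyte enzymes were also sparse. Of 16, only CPS1 of the urea cycle passed, at 10.8, 10.98 and 10.2 RPKM in t2iGo H1. The range of CPS1 was 1.64 to 6.496 in primed H1, and in 5iLA H7 it was 5.05 to 11.7. CYP1A2, G6PC and PCK1 were at 0 in all 3 t2iGo libraries.

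**Figure D3:**
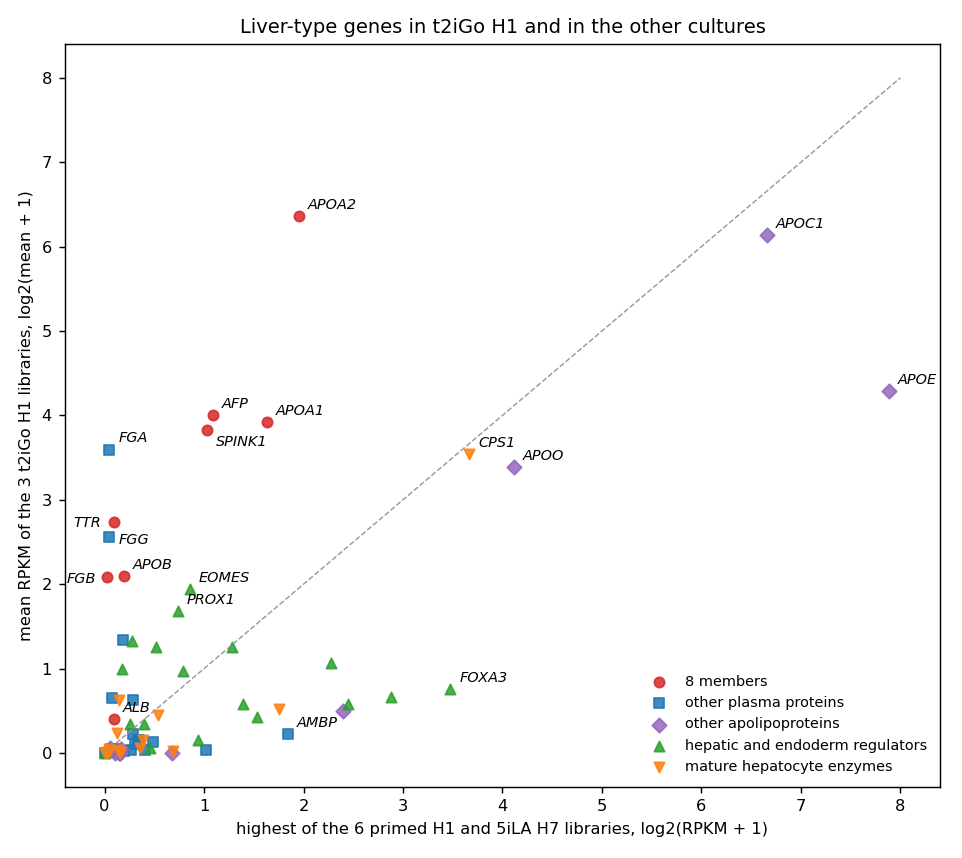
Mean RPKM of the 3 t2iGo H1 libraries, as log2(mean + 1), against the highest of the 6 primed H1 and 5iLA H7 libraries, as log2(RPKM + 1), with 1 point per gene for the 8 members and 4 lists of related genes; the dashed line marks equal values. All members but ALB, which sits near the origin, and FGA and FGG lie far above the line, APOE lies below it, and most regulators and hepatocyte enzymes lie near 0 on the vertical axis.

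Genes outside the 8 that were most like them were ranked by Pearson's r over the 9 shRNA libraries to the members' mean profile, among 5634 candidates. These r values are a description, dominated by the split between t2iGo H1 and the rest. FGG (0.994) and FGA (0.990) came first, then GSTA2 (0.987), LUM (0.986), IGF2 (0.983), TTC29 (0.982), GSTA1 (0.981), GUCY1A3 (0.981), CXCL14 (0.980) and MMRN1 (0.979). GSTA1 and GSTA2 are glutathione transferases abundant in liver. GSTA2 was at 1.22, 3.50 and 4.66 RPKM in t2iGo H1 and at most 0.0725 elsewhere. The pair have near-identical sequences, so their reads may be split uncertainly. IGF2, a fetal growth factor, was at 9.46, 14.2 and 23.2 RPKM in t2iGo H1 and 0.299 to 1.44 elsewhere. LUM, lumican of the extracellular matrix, was at 13.9, 32.7 and 71.5 RPKM and at most 0.503 elsewhere.

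Some markers of other cell types were also higher in t2iGo H1 or with the CCNE1 shRNAs there, and others were not. The 12 fibroblast and feeder genes summed to 558 to 709 RPKM in t2iGo H1. Primed H1 had 346 to 448 and 5iLA H7 had 30.5 to 58.5. Of the 10 that passed, 5 were at least 2-fold higher in t2iGo H1 than in primed H1 and 2 were lower, beside 4.18% and 43.2% of all genes. LUM, 1 of the 5, passed only through t2iGo H1, so its place in that count was tied to the filter. COL3A1 was at 47.3, 86.9 and 137 RPKM with the control, uCCNE1 and pCCNE1 shRNAs in t2iGo H1, and at most 2.60 elsewhere. VIM was at 340, 346 and 292 RPKM and FN1 at 132, 146 and 175. COL1A2, a defining collagen of fibroblasts named after its values were seen, was at 1.41 to 2.31 in t2iGo H1 and 23.2 to 29.6 in primed H1. The 19 yolk sac and visceral endoderm genes in the tables summed to 259 to 352 RPKM in t2iGo H1. Primed H1 had 174 to 197 and 5iLA H7 had 121 to 206. SPARC was at 107, 156 and 200 RPKM in t2iGo H1, above primed H1 (72.4 to 90.0) but overlapping 5iLA H7 (59.6 to 135). LAMB1, at 31.5, 39.1 and 45.7, COL4A1, at 25.6, 33.7 and 42.9, and LAMA1, at 16.8, 19.5 and 19.9, overlapped their primed H1 ranges. AMN was at 0. Other genes of the list, named after their values were seen, were lower with both CCNE1 shRNAs. CER1 was at 30.02, 6.03 and 3.25 RPKM in t2iGo H1 and NODAL at 18.98, 10.6 and 5.396. In 5iLA H7 NODAL was higher, at 29.9 to 36.4. GATA4, GATA6 and SOX17 were also lower with both CCNE1 shRNAs in the values above. Of 11 genes that passed, 4 were at least 2-fold higher than in primed H1 and 1 was lower, beside 4.18% and 43.2% of all genes. Among the 4, PDGFRA passed only through t2iGo H1, so its place in that count was tied to the filter. With uCCNE1 1 was at least 2-fold higher than the t2iGo control and 1 lower, beside 0.38% and 0.636%, and with pCCNE1 none was higher and 2 were lower, beside 0.735% and 2.72%.

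Intestine-type genes stayed low, with summed levels of 2.01 to 2.99 RPKM in t2iGo H1 and 1.93 to 5.59 in primed H1, and TFF3 and MUC2 were at 0. FABP1, at 0.521, 0.258 and 1.77 RPKM, and CDX1, at 0.783, 0.845 and 0.279, were the highest of them by their mean. Trophoblast genes summed to 10.1 to 13.4 RPKM in t2iGo H1, 6.4 to 13.7 in primed H1 and 64.3 to 80.3 in 5iLA H7. CGB, VGLL1 and ELF5 were at 0 in t2iGo H1. Mesoderm genes summed to 28.6 to 38.3 RPKM in t2iGo H1 and 26.3 to 45.1 in primed H1, and neural genes to 95.3 to 114 and 113 to 245. Core pluripotency genes summed to 435 to 577 RPKM in t2iGo H1, 1251 to 1410 in primed H1 and 410 to 672 in 5iLA H7. LIN28A, with values given above, made up most of the t2iGo sum. At least 2-fold lower in t2iGo H1 than in primed H1 were 6 of the 7 that passed, beside 43.2% of all genes. The list's median from primed H1 was -1.52, and it was nearer 0 under the other scalings, at -0.75 and -0.43. Of 7 that passed, 1 was at least 2-fold lower with uCCNE1 and 4 with pCCNE1 than with the control, beside 0.636% and 2.72% of all genes. The part of these cell types in the levels of the 8 genes was not tested.

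**Figure D4:**
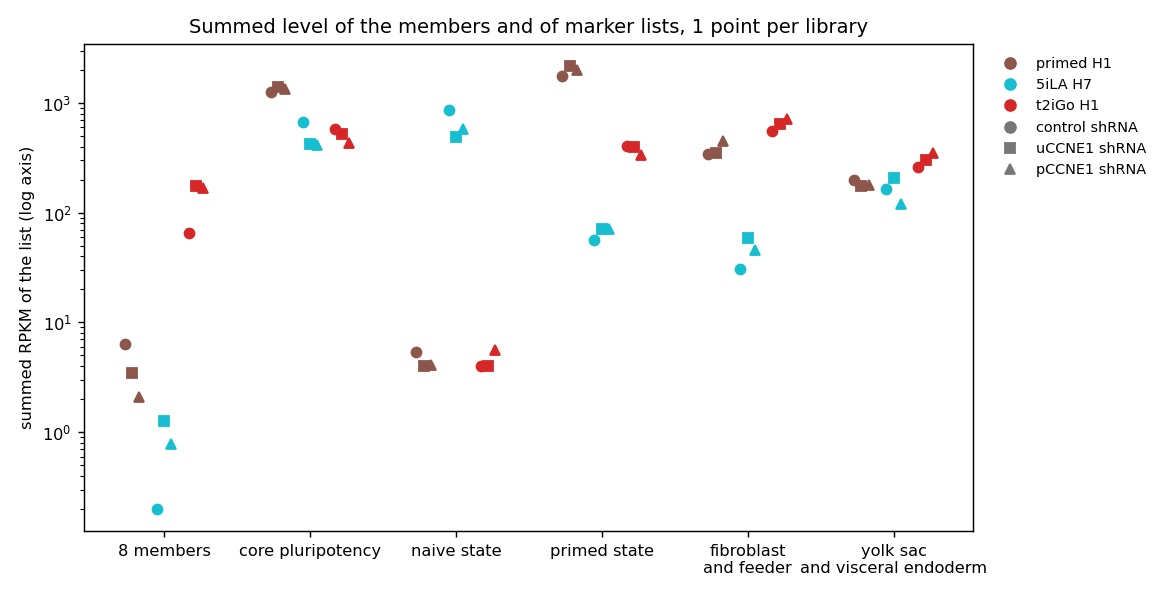
Summed RPKM of the 8 members and of 5 marker lists, on a log axis, with 1 point per shRNA library; colours give the culture and shapes the shRNA. The t2iGo H1 points of the members lie at 65.5 to 176, the naive-state points at 3.995 to 5.58, and the fibroblast and feeder points at 558 to 709.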

How the data were processed

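The deposited values were RPKM per gene, per the file headers, in 1 table with the 9 shRNA libraries and 1 with the 2 untreated libraries, normalised by the authors before deposit and analysed here separately. TopHat2 2.3.0, Cufflinks 1.2.1 and hg19 are named per the submitters' processing notes, while for their roles and for the use of strand the sources used here give nothing. Per the labels' protocols, RNA was taken with an RNeasy kit and libraries were made with TruSeq kits.

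The members and all 14 lists were chosen with earlier results of these data known. Values were analysed as log2(RPKM + 1), and genes with a mean of at least 1 RPKM were kept for tests and background shares. limma 3.58.1 (R 4.3.3) with an intensity trend and Benjamini-Hochberg adjustment was fitted to the 6 libraries of primed H1 and 5iLA H7, since the members were chosen from t2iGo H1. Its p-values measure only the spread between these libraries. The fit and the depth estimate were tested on simulated data. Depth came from the steps of low RPKM values with GENCODE transcript lengths: 38.2% to 45.5% of low values lay within 0.1 of a whole number of reads, so read numbers are estimates. Intervals of ratios are 95% intervals from those reads. Named were the members, CCNE1, up to 4 genes per list with the highest mean RPKM in t2iGo H1, and the 10 genes most like the members by Pearson's r among genes with a coding-transcript accession, a mean of at least 1 RPKM and a log2 range of at least 2. Further genes are said to be named after their values were seen. Alternatives were a pseudocount of 0.1, other scalings, no filter, all 9 libraries in the fit, no culture term, each shRNA left out, and folds with no pseudocount. Promoters are from RefSeq tables of GRCh38.p14. Some listed genes are not reported here.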

Additional observations from a re-analysis of the deposited data

Results flagged for a closer look

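APOA2 moved in opposite directions with the CCNE1 shRNAs in the 2 cultures of line H1. APOA1 was lower with both in primed H1 and little above its control in t2iGo H1. For each gene both shRNA libraries were above the control in t2iGo H1 and below it in primed H1. The t2iGo side is among the values that the genes were listed for. The mean shRNA effect on the log2(RPKM + 1) scale was 1.42 greater in t2iGo H1 than in primed H1 for APOA1 and 2.42 greater for APOA2. For APOA1 most of the gap lay in primed H1, since its t2iGo ratios were 1.31 (1.02 to 1.68) and 1.05 (0.767 to 1.43). With 1 library per group the difference was not tested. The primed values of the CCNE1 shRNA libraries rest on about 2 to 10 reads by steps, or 3 to 16 by GENCODE length.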

How the results depend on the processing

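The 163 genes called for pCCNE1 and the 217 for uCCNE1 in primed H1 and 5iLA H7 depended on the setting. With limma, 0 were called for either shRNA in the fit on all 9 libraries, with median-ratio scaling, with coding entries only, with no culture term and with no filter. Unadjusted p-values under 0.05 then numbered 1792, 638, 645, 1 and 979 for pCCNE1 and 1236, 778, 810, 5 and 1130 for uCCNE1. The APOA2 change turned to 0.18 with pCCNE1 (adjusted p = 0.851) and 0.32 with uCCNE1 (adjusted p = 0.786) in the 9-library limma fit, and to 0.079 with uCCNE1 (adjusted p = 0.979) at a pseudocount of 0.1. It had no value under the 2 scalings, where it missed the filter. Genes called between 5iLA H7 and primed H1 went from 10330 to 6875 with coding entries only. At a pseudocount of 0.1 the members' median rose to 4.43 over primed H1 and 5.78 over 5iLA H7, and 2 untreated members (APOA2 and SPINK1) passed 2-fold. The largest difference from 5iLA H7 was then that of APOA1, at 7.14, with APOA2 at 6.95. With no pseudocount the uCCNE1 median in t2iGo H1 was 1.59. The cause was not tested. Reads taken from GENCODE lengths, an alternative chosen after seeing the data, moved 2 intervals of pCCNE1 over uCCNE1 in t2iGo H1 (SPINK1, TTR) off 1. Of 179 values of single genes under alternatives, 146 stayed within their limit or kept their side. For culture differences the limit was the SD over the 3 shRNAs, and for shRNA effects in t2iGo H1 it was the counting interval. Another 26 moved further, 2 lost their call, 3 changed sign and 2 were the intervals that moved off 1. No paired analysis was possible because the labels give no replicate numbers and each group holds 1 library, and the fits already match libraries by culture and shRNA. Depth limits ALB everywhere and all members in infected 5iLA H7, where each rests on at most 3 reads by steps, or 4 by GENCODE length.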
